A study of Mus musculus with 8 samples.

Results

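Mast cell genes were examined in pancreatic tumors of mice with and without complement C3. The set held 9 of the 29968 genes in the table. They were Cpa3, Mcpt4, Cma1, Tpsb2 and Tpsab1, which encode proteases of the mast cell granule, Kit, Ms4a2 and Fcer1a, which encode surface receptors or their subunits, and Hdc, which encodes histidine decarboxylase. The genes were chosen because mast cell markers were low in a single WT tumor, WT replicate 2, so the low level of that tumor is a description of how they were selected and not a finding.

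RNA was sequenced from tumors of 4 wild-type mice (C57BL/6J, called WT) and 4 mice with a whole-body deletion of complement C3 (C3-/-). The hosts were male and 12 weeks old, and each received 250000 KPC cells in 50 μL of saline by injection into the pancreas. KPC FC1245 is a pancreatic cancer cell line from a tumor of an engineered mouse whose alleles included mutant Trp53 and Pdx-1-Cre. The same cells went into both groups, so only the host differed in C3. The comparison of the genotypes asks whether loss of C3 from the host changed the tumor transcriptome.

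Mast cells are tissue-resident leukocytes that store histamine, serglycin proteoglycan and proteases in cytoplasmic granules and release them when activated. IgE bound to the high-affinity IgE receptor is the best known trigger, and the complement fragments C3a and C5a, which act on C3ar1 and C5ar1, are others. Survival of mast cells depends on stem cell factor (Kitl) acting on its receptor Kit. In mice, connective tissue mast cells carry Cma1, Mcpt4, Cpa3 and Tpsb2, mucosal mast cells carry Mcpt1 and Mcpt2, and basophils carry Mcpt8.

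Total counts per tumor ran from 13266029 to 23354212 and were spread over 22174 to 25343 genes. Of the 29968 genes, 16610 passed the filter on low counts and were tested between genotypes with edgeR's quasi-likelihood test. Levels are in CPM, the count relative to the library total after TMM normalization. C3, the deleted gene, had 3370, 5652, 2998 and 7623 counts in the WT tumors (replicates in order) and 2338, 2387, 1591 and 1842 in the C3-/- tumors, and the highest C3-/- tumor, at 133.7 CPM, was under the lowest WT tumor, at 209.6 CPM. Its log2 fold change was -1.42 (SE 0.23, edgeR p 8.55e-05, adjusted p 0.933). The adjusted p was high even for the deleted gene, so a high adjusted p does not show that a gene did not differ. Nothing in the labels says more about the mice than their group, and each tumor was taken as a sample of its own.

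Of the 9 mast cell genes, 6 passed the filter and 3 did not (Tpsab1, Ms4a2 and Fcer1a), and values for these 3 came from the same test run without a filter. A bulk tumor cannot tell fewer mast cells from less mast cell RNA per cell. Levels are compared between genes in FPKM, the authors' values per gene length. Averaged over the 8 tumors, Tpsb2 stood highest at 3.05 ± 1.80 FPKM (SD, n = 8), followed by Cma1 at 2.35 ± 1.47, Mcpt4 at 1.71 ± 1.07, Cpa3 at 1.34 ± 0.787, Hdc at 0.990 ± 0.551, Kit at 0.938 ± 0.193, Fcer1a at 0.541 ± 0.535, Tpsab1 at 0.254 ± 0.138 and Ms4a2 at 0.0209 ± 0.0208. Between neighbours in this order, the mean difference was larger than its SD over the 8 tumors for Tpsb2 over Cma1 (0.701 ± 0.469 FPKM) and for Tpsab1 over Ms4a2 (0.233 ± 0.142 FPKM). The other 6 neighbours did not differ beyond their spread, and Hdc lay above Kit in only 3 of 8 tumors.

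Promoters are shown for Cpa3, Mcpt4 and Cma1, which are 3 of the 4 proteases that passed the filter, and for Kit. That of Tpsb2 is not among them, so the low proteases are shown only in part, and nothing is read from how many hold a motif or from a contrast with Kit. Each sequence is the 250 bases before the start of the canonical GENCODE vM39 transcript on GRCm39, 5′ to 3′ on the strand of the gene. Capitals mark a GATA motif on either strand, that is the letters AGATAA or its variants that begin with T, end in G or both, the word read by GATA factors such as the mast cell regulator GATA2.
Cpa3, chr3:20296363-20296612, minus strand: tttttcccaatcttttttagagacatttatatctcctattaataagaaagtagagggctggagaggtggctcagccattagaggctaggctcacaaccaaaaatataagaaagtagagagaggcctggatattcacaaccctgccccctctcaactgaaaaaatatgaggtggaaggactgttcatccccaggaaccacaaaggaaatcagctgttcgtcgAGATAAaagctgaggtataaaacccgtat
Mcpt4, chr14:56299771-56300020, minus strand: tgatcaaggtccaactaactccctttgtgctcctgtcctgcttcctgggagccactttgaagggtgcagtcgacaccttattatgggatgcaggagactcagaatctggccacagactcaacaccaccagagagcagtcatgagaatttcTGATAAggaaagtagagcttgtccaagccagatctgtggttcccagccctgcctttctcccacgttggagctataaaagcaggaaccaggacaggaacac
Cma1, chr14:56182133-56182382, minus strand: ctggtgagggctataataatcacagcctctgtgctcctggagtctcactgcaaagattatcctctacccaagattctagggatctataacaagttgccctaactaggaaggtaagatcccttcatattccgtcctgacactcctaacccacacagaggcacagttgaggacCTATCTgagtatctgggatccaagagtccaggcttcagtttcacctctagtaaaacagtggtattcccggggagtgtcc
Kit, chr5:75735326-75735575, plus strand: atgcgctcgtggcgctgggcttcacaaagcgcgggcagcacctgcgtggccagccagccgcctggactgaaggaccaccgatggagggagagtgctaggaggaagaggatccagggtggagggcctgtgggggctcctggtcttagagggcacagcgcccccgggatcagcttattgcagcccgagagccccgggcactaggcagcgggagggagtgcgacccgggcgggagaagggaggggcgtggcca
The motifs started at positions -29 (Cpa3), -100 (Mcpt4) and -79 (Cma1) from the transcript start, and Kit held 0. Of the 8 mast cell genes other than Tpsb2, 6 had a promoter with at least 1, against 22.5% of the 16559 promoters of tested genes that could be read. The share in the whole set, with Tpsb2, is not reported here, so nothing is read from this contrast. An E-box of the kind read by MITF (the letters CACGTG, or the same with T in the third place, on either strand) was found in 1 of the 8, Fcer1a, against 15.0% of the promoters. The motifs do not overlap in these windows. A match is a description of the letters and not a binding site.

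Low values in WT replicate 2 were seen in the proteases and in Fcer1a. Tpsb2, the main tryptase of mouse mast cells (chromosome 17, 25585279 to 25588072 on mm39), had 139, 3, 68 and 160 counts in the 4 WT tumors and 126, 27, 61 and 131 in the 4 C3-/- tumors, given here and below in the order of the replicates. WT replicate 2 was the lowest of the 8 tumors and C3-/- replicate 2 the next lowest, and the genotypes overlapped. The log2 fold change of C3-/- over WT was -0.18 (SE 0.73, edgeR adjusted p 0.999), from means of 4.60 ± 2.47 CPM in C3-/- and 5.20 ± 3.61 CPM in WT tumors (SD, n = 4 each).

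Tpsab1 encodes the other granule tryptase and lies on the same chromosome (25562219 to 25564536) on the opposite strand. Its counts were 12, 0, 7 and 24 in WT tumors and 13, 7, 8 and 9 in C3-/- tumors, again lowest in WT replicate 2, where a count of 0 allows up to 3. In the fit without a filter its log2 fold change was -0.25 (SE 0.70, edgeR adjusted p 0.987). The coding sequences of Tpsb2 and Tpsab1 were 70.6% identical and the longest run of bases shared by their transcripts was 39, shorter than a read of 150 bases.

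Cma1 encodes the chymase mMCP-5 (chromosome 14, 56178908 to 56182132) and had 74, 5, 31 and 91 counts in WT tumors and 78, 8, 27 and 67 in C3-/- tumors. The second replicate of each genotype was far below its 3 neighbours. The log2 fold change was -0.25 (SE 0.70, edgeR adjusted p 0.999).

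Cpa3, mast cell carboxypeptidase A (chromosome 3, 20269784 to 20296345), had 52, 4, 28 and 67 counts in WT tumors and 29, 14, 32 and 69 in C3-/- tumors. Its order was the same, with WT replicate 2 lowest and C3-/- replicate 2 next. The log2 fold change was -0.11 (SE 0.63, edgeR adjusted p 0.999). A microRNA gene, Mir7007, lies within Cpa3 on the same strand, and no gene of the table overlaps any of the other 8.

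Mcpt4, a chymase that cleaves matrix and cytokine substrates (chromosome 14, 56297086 to 56299770), had 47, 11, 16 and 42 counts in WT tumors and 84, 5, 27 and 49 in C3-/- tumors. Here C3-/- replicate 2 and not WT replicate 2 was the lowest tumor, with 5 counts against 11. The log2 fold change was 0.34 (SE 0.64, edgeR adjusted p 0.999). Mcpt4 was 86.9% identical in coding sequence to Mcpt1 and 84.3% to Mcpt9, with shared runs of up to 56 bases, and its count is uncertain by as much as the counting split reads among these relatives.

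Of the receptor genes, Kit did not follow the proteases. Kit, the receptor for stem cell factor (chromosome 5, 75735576 to 75817382), had 7.03, 11.2, 6.40 and 8.47 CPM in WT tumors and 6.41, 9.24, 8.70 and 10.2 CPM in C3-/- tumors. Its highest level was in WT replicate 2, the tumor chosen as low in mast cell markers. Its log2 fold change was 0.06 (SE 0.23, edgeR adjusted p 0.999). Kit is also carried by interstitial cells of Cajal and melanocytes, and the genes listed as their markers had uneven counts. Ano1, a chloride channel of interstitial cells, had 2152 to 4639 counts per tumor in all 8 tumors, while the melanocyte enzyme gene Dct had 1, 5, 0 and 7 counts in WT tumors and 0 in every C3-/- tumor. Pmel, the only tested melanocyte marker, had 35, 17, 38 and 39 counts in WT tumors and 41, 47, 38 and 36 in C3-/- tumors (log2 fold change 0.16, SE 0.31, edgeR adjusted p 0.999). Whether these cells were in the tumors, and their part in the level of Kit, was not tested.

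Fcer1a encodes the chain of the IgE receptor that binds IgE (chromosome 1, 173048851 to 173054781). It had 20, 2, 6 and 35 counts in WT tumors and 3, 0, 7 and 8 in C3-/- tumors, with both second replicates the lowest of their genotype. In the fit without a filter the log2 fold change was -1.75 (SE 0.82, p 0.0507, edgeR adjusted p 0.81), the largest difference between genotypes among the 9 genes, and the groups overlapped. Ms4a2, the signal-amplifying chain of the same receptor (chromosome 19, 11592887 to 11601083), was close to absent, with 1, 0, 1 and 0 counts in WT tumors and 0, 2, 1 and 3 in C3-/- tumors. At this depth a difference in Ms4a2 was not detectable.

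Hdc makes histamine from histidine (chromosome 2, 126435587 to 126461219). It had 59, 101, 185 and 182 counts in WT tumors and 115, 82, 37 and 107 in C3-/- tumors. WT replicate 2 was not low, at 7.61 CPM among WT levels of 3.67 to 13.9 CPM, and the lowest tumor was C3-/- replicate 3 at 2.33 CPM. The log2 fold change was -0.85 (SE 0.41, p 0.0609, edgeR adjusted p 0.971), and DESeq2 gave -0.86 (p 0.0254, adjusted p 0.781). Among the 6 genes that passed the filter Hdc had the smallest p, and the genotypes overlapped.

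**Figure D1:**
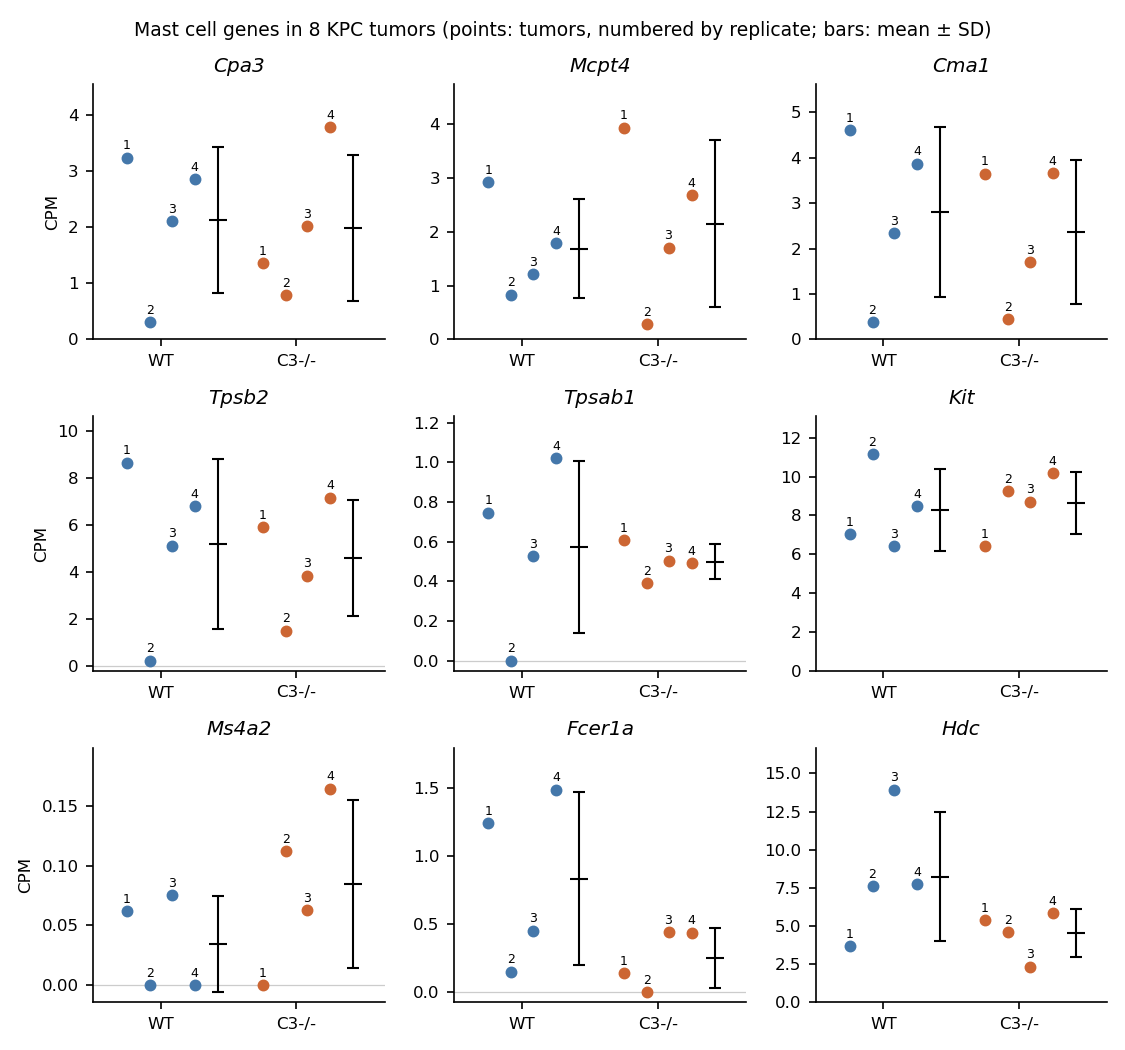
Level of each of the 9 mast cell genes in CPM (vertical axis, from 0, a separate scale per gene) in 4 WT (blue) and 4 C3-/- tumors (orange), with each point a tumor numbered by its replicate and black bars the mean ± SD. Replicate 2 of both genotypes sits low for Cpa3, Mcpt4, Cma1 and Tpsb2, while Kit is highest in WT replicate 2 at 11.2 CPM.

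Summed over the 5 proteases, the WT tumors had 324, 23, 150 and 384 counts, and the C3-/- tumors had 330, 61, 155 and 325. In CPM, WT replicate 2 had 1.73 (95% exact Poisson interval 1.10 to 2.60) and C3-/- replicate 2 had 3.42 (2.61 to 4.39), while the other 6 tumors lay between 9.77 and 20.2. The interval covers counting error only, since read pairs without molecular identifiers are not independent molecules. The genes were selected on WT replicate 2, so nothing is read from its level. The other 3 C3-/- tumors together stood 4.27-fold above C3-/- replicate 2 (95% interval 3.29 to 5.63, counting error only). The means of the genotypes were 12.4 ± 7.97 CPM in WT and 11.6 ± 6.41 CPM in C3-/- tumors (SD, n = 4 each), a difference smaller than the spread between tumors of a genotype.

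**Figure D2:**
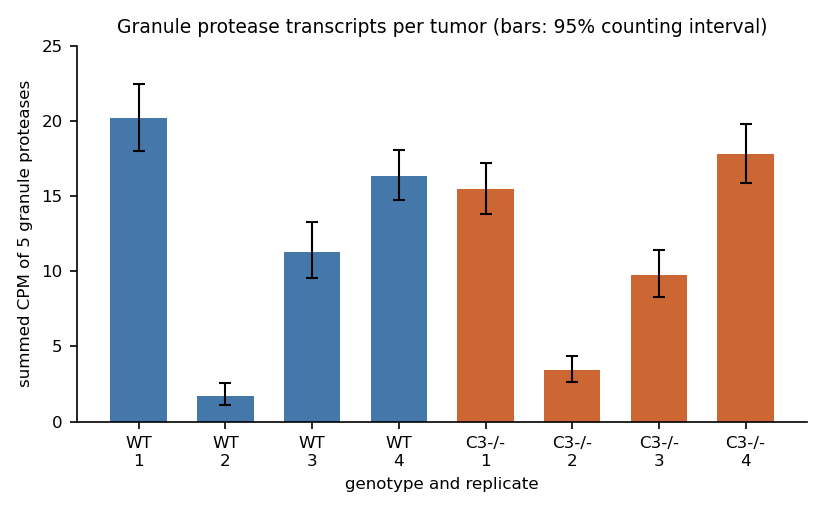
Summed CPM of Cpa3, Mcpt4, Cma1, Tpsb2 and Tpsab1 (vertical axis, from 0) in each of the 8 tumors, WT in blue and C3-/- in orange, with error bars giving the 95% exact Poisson interval of the summed count. WT replicate 2 at 1.73 CPM and C3-/- replicate 2 at 3.42 CPM stand below the other 6 tumors, which lie between 9.77 and 20.2 CPM.

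Each protease gave a share of the summed protease counts of a tumor. These are shares of counts, not scaled to gene length, and are compared only within a gene. Outside WT replicate 2, on which the genes were selected, the share of Tpsb2 ran from 38.2% to 45.3% over 7 tumors, that of Cma1 from 13.1% to 23.7%, that of Cpa3 from 8.79% (C3-/- replicate 1) to 23.0% (C3-/- replicate 2), that of Mcpt4 from 8.20% (C3-/- replicate 2) to 25.5% (C3-/- replicate 1), and that of Tpsab1 from 2.77% to 11.5%. In WT replicate 2, Tpsb2 gave 3 of the 23 protease counts and Mcpt4 11, and nothing is read from these.

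The genes were chosen for WT replicate 2 and not for C3-/- replicate 2. The choice was made with earlier results of these data known, and the second replicates deviated together from their group means (correlation 0.49 across genes), so the level in C3-/- replicate 2 is not independent of it and is given as a description. C3-/- replicate 2 was the lowest of the 4 C3-/- tumors in 4 of the 6 tested mast cell genes, against 28.1% of all 16610 genes tested, and in 6 of all 9. It was the lowest by at least 1 on the log2 scale in 3 of 6 (Mcpt4, Cma1 and Tpsb2), against 2.52% of all genes. That share covers genes at all count levels, while these 3 had 5, 8 and 27 counts in C3-/- replicate 2. The share among genes of like counts was not tested. Being the lowest of its genotype was not limited to these genes. C3-/- replicate 2 was lowest of the 4 in 8 of 15 genes of IgE receptor signalling and 4 of 5 general leukocyte genes tested. The same held for 2 of 2 eosinophil, 8 of 8 fibroblast and 10 of 10 skeletal muscle genes. Other lists had fewer, with 0 of 6 epithelial, 0 of 7 lipid mediator, 1 of 6 mesothelial and 1 of 11 acinar genes. The sum of C3-/- replicate 2 was the lowest of all 8 tumors for the IgE receptor signalling, ligand, basophil, eosinophil and endothelial lists. Most of its basophil sum came from Cd63 (288 CPM) and Il3ra (45.1 CPM), and most of its eosinophil sum from Il5ra (59.9 CPM). Mcpt8, a basophil protease, was at 9.97 CPM there, within 2.92 to 24.3 CPM over the 8 tumors. These sums are not read as levels of basophils or eosinophils. Mcpt4, Cma1 and Tpsb2 are proteases of the same granule in the same 8 tumors and are not independent of each other. WT replicate 2 was the lowest of all 8 tumors in 3 of 6 genes, against 10.5% of all genes, and both second replicates lay below the other 6 tumors in 4 of 6, against 4.91%. Since the genes were selected on WT replicate 2, nothing is read from these last counts.

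The gap between WT replicate 2 and the lowest of the other 7 tumors is the measure on which the genes were selected and is given only to describe them. It was -2.26 on the log2 scale for Tpsb2, with 0 of the tested genes lower, -1.11 for Cpa3, with 50 lower, and -0.20 for Cma1, with 673 lower, and the gaps of Kit (0.79), Mcpt4 (1.26) and Hdc (1.66) were above 0, since another tumor was lower.

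**Figure D3:**
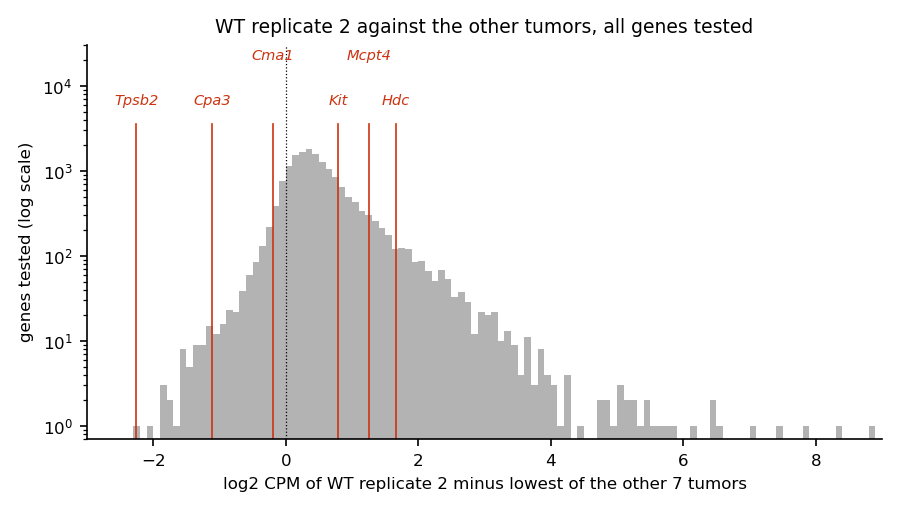
Number of tested genes (vertical axis, log scale) by the log2 CPM of WT replicate 2 minus that of the lowest of the other 7 tumors (horizontal axis), with red lines marking the 6 tested mast cell genes. Tpsb2 lies at the far left at -2.26, Cpa3 at -1.11 and Cma1 at -0.20, while Kit, Mcpt4 and Hdc lie to the right of 0, where WT replicate 2 is not the lowest tumor, and the genes were selected on this tumor.

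The 2 tumors low in proteases were alike in some tissue markers and differed in others. Of 17 lists of markers of other cell types, 3 had a lower sum in both of these tumors than in each of the other 6, namely skeletal muscle, smooth muscle and neutrophils. Summed over 11 skeletal muscle genes, the WT tumors had 1900, 15.4, 30.7 and 4371 CPM and the C3-/- tumors 2081, 24.0, 1708 and 3904 CPM. Muscle transcripts were therefore low in both tumors that were low in proteases and also in WT replicate 3, which had 11.3 CPM of protease. Of the 11 muscle genes, 3 were at 0 in WT replicate 2, 4 in WT replicate 3 and 3 in C3-/- replicate 2. The smooth muscle markers summed to 231 CPM in WT replicate 2 and 195 CPM in C3-/- replicate 2, against 424 to 925 CPM in the other 6 tumors, and 1 of the 6 genes was at 0 in each. The order rested on Des, desmin, which skeletal muscle also carries (27.6 and 20.8 CPM in these tumors, 36.2 to 642 CPM elsewhere). Without Des, a choice made after the values were seen, the sums were 203 and 174 CPM, within the 136 to 406 CPM of the other 6 tumors. The neutrophil markers summed to 25.7 and 34.4 CPM in these tumors, against 37.4 to 105.4 CPM in the others, and 2 of the 5 tested neutrophil genes were below the other 6 tumors in both. Summed fibroblast markers were lowest in C3-/- replicate 2 at 4457 CPM and second highest in WT replicate 2 at 11043 CPM, within a range up to 11354 CPM. WT replicate 2 had the highest level of 8 adipocyte genes, 833 CPM against 114 to 320 CPM in C3-/- and 121 to 229 CPM in the other WT tumors, and of 11 islet genes, 105 CPM against at most 4.92 CPM elsewhere. The 6 general leukocyte markers summed to 114 CPM in WT replicate 2, the lowest of the WT tumors, which reached 146 CPM, and to 88.5 CPM in C3-/- replicate 2, the lowest of all 8. The part of these tissues in the level of the mast cell genes was not tested.

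Between the genotypes, 0 of the 6 tested mast cell genes had an edgeR adjusted p below 0.05, against 0% of all 16610 genes tested, and 0 had an unadjusted p below 0.05, against 5.11%. In 0 of 6, and in 0 of all 9, did the 4 C3-/- tumors lie apart from the 4 WT tumors, against 3.73% of all genes. DESeq2 called 0 of the 8 members for which it gave an adjusted p, against 16 of the 29900 genes for which it gave a p. The median log2 fold change was -0.15 over the 6 tested genes, beside a median of 0 over all genes tested, and -0.19 over all 9 in the fit without a filter. Leaving out WT replicate 2 moved the median to -0.52, and leaving out C3-/- replicate 2 moved it to 0.10, so its sign was not stable to the loss of a single tumor. None of the 9 genes was called in either fit. The main fit did not call C3, the deleted gene, so the absence of calls does not show that these genes did not differ.

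**Figure D4:**
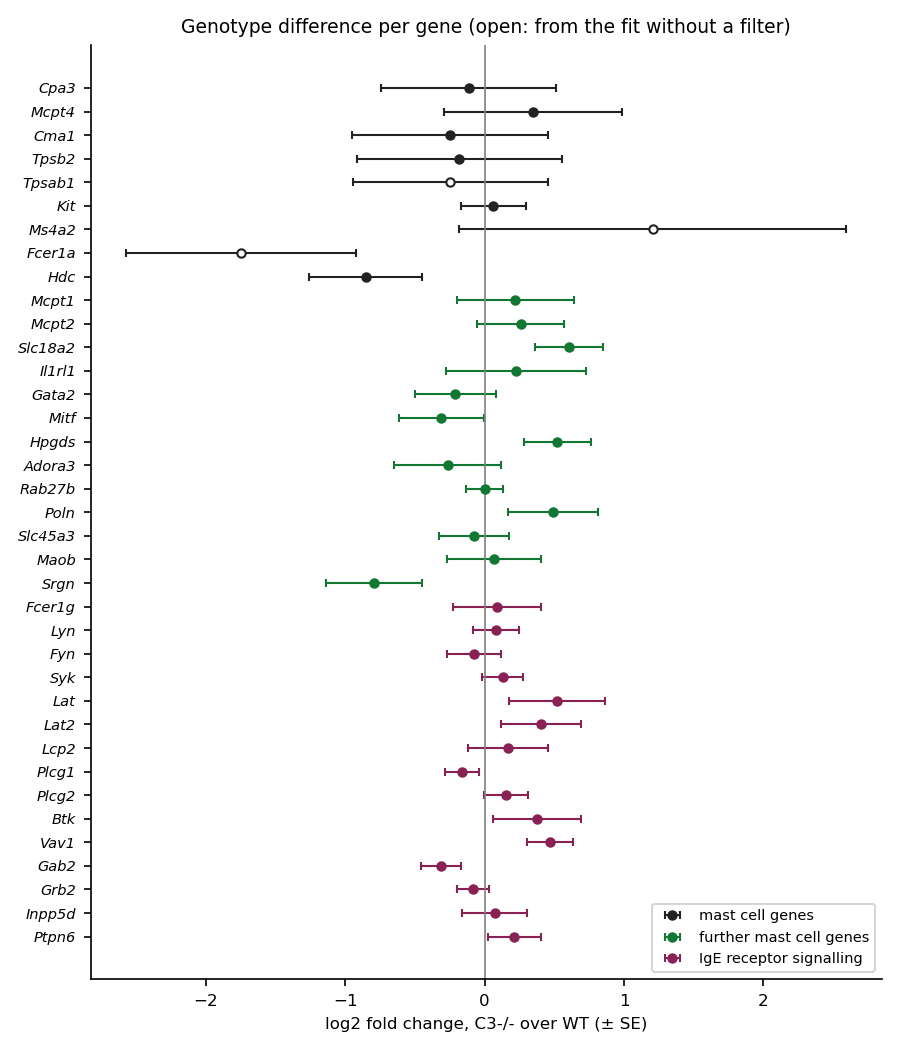
Log2 fold change of C3-/- over WT tumors (horizontal axis, bars ± SE) for the 9 mast cell genes (black, open where the value comes from the fit without a filter), the tested further mast cell genes (green) and the tested genes of IgE receptor signalling (purple). The bars of the 5 proteases and Kit span 0, Fcer1a lies lowest at -1.75 and Ms4a2, with 8 counts in all, highest at 1.21.

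Among the 20 further mast cell genes, 13 were tested, and 0 rose or fell at an edgeR adjusted p below 0.05. The median log2 fold change was 0.07. The smallest p values were those of Slc18a2, which loads histamine and serotonin into granules (log2 fold change 0.61, SE 0.24, p 0.0304), Srgn, the serglycin core protein to which granule proteases bind (-0.79, SE 0.35, p 0.0445), and Hpgds, the prostaglandin D2 synthase of hematopoietic cells (0.52, SE 0.24, p 0.0559), each with an adjusted p of 0.971. Srgn is made by many leukocytes and was at 972 to 2532 counts in WT and 587 to 1587 in C3-/- tumors.

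The mucosal mast cell proteases did not share the low level of the second replicates. Mcpt1 had 31, 59, 69 and 61 counts in WT tumors and 65, 118, 74 and 39 in C3-/- tumors, with its highest count in C3-/- replicate 2. Mcpt2 had 89, 81, 117 and 93 counts in WT tumors and 169, 176, 112 and 78 in C3-/- tumors, and it too was highest there. Their log2 fold changes were 0.22 (SE 0.42) and 0.26 (SE 0.31), each with an edgeR adjusted p of 0.999.

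Receptors tied to connective tissue mast cells had few counts. Mrgprb2, a receptor for basic peptides and drugs on these cells, had 2, 3, 6 and 2 counts in WT tumors and 1, 0, 1 and 1 in C3-/- tumors. Its relative Mrgprb1, named after its values were seen, had 12, 0, 1 and 12 counts in WT tumors and 4, 2, 7 and 9 in C3-/- tumors, so that WT replicate 2 was at 0 and C3-/- replicate 2 was the lowest of its genotype. The transcription factors GATA2 and MITF, which act in mast cell development, had edgeR log2 fold changes of -0.21 (Gata2, SE 0.29) and -0.31 (Mitf, SE 0.30), and their counts in WT replicate 2 were 65 and 71. In C3-/- replicate 2 both were at their lowest level of the 8 tumors, Gata2 at 2.52 CPM against 3.42 to 6.34 and Mitf at 3.70 CPM against 3.86 to 8.38.

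Of the 15 genes that carry the signal of the IgE receptor, all were tested and 0 were called. Their median log2 fold change was 0.13. The gene with the smallest p was Vav1, a guanine nucleotide exchange factor of leukocytes, with means of 15.2 ± 2.32 CPM in C3-/- and 11.0 ± 0.937 CPM in WT tumors (SD, n = 4 each). The log2 fold change of Vav1 was 0.47 (SE 0.17, p 0.0179, edgeR adjusted p 0.96), with the 4 C3-/- tumors above the 4 WT tumors. Gab2, an adaptor, followed at -0.31 (SE 0.14, p 0.053) and the adaptor Lat at 0.52 (SE 0.34, p 0.159). Fcer1g, the chain that the IgE receptor shares with Fc receptors of other leukocytes, had 332 to 732 counts in WT and 370 to 1127 in C3-/- tumors. Ptprc, the general leukocyte marker CD45, had a log2 fold change of 0.52 (SE 0.19, p 0.0235, edgeR adjusted p 0.965) with all C3-/- tumors above all WT tumors. Of the 5 tested genes on the list of general leukocyte markers, 3 had a higher and 2 a lower mean in C3-/- tumors, and the myeloid integrin gene Itgam had -0.57 (SE 0.25, p 0.0435, edgeR adjusted p 0.971). The part of other leukocytes in the levels of these shared genes was not tested.

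The factors that sustain mast cells were present in every tumor. Kitl, which encodes stem cell factor, had 2142, 1448, 984 and 2272 counts in WT tumors and 1873, 2335, 2106 and 2295 in C3-/- tumors, and WT replicate 3, not WT replicate 2, was lowest. Il33, an alarmin that activates mast cells through Il1rl1, had 2740 to 5639 counts in WT and 2998 to 4882 in C3-/- tumors. Their log2 fold changes were 0.21 (SE 0.19) and -0.06 (SE 0.19). Of the 10 listed ligands and complement receptors, 7 were tested and 0 were called. Their median log2 fold change was 0.05. The smallest p values were those of Il4 (0.50, SE 0.29, p 0.113) and Kitl (p 0.312). C3ar1, the receptor for C3a, had a log2 fold change of -0.09 (SE 0.23), and C5ar1, the receptor for C5a, 0.11 (SE 0.28).

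Basophils share Fcer1a and Hdc with mast cells. Mcpt8, their granule protease, had 47, 125, 323 and 221 counts in WT tumors and 124, 178, 118 and 80 in C3-/- tumors, highest in WT replicate 3, where Hdc was highest as well. Its log2 fold change was -0.74 (SE 0.52, edgeR adjusted p 0.999). Prss34, another basophil protease, had 0 counts in every WT tumor and 12, 0, 3 and 3 in C3-/- tumors, and the eosinophil granule gene Prg2 had 2, 1, 0 and 6 counts in WT and 36, 0, 0 and 2 in C3-/- tumors. Of the 6 basophil markers 3 were tested and of the 6 eosinophil markers 2, and 0 were called in either list. The part of basophils in the levels of Fcer1a and Hdc was not tested.

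**Figure D5:**
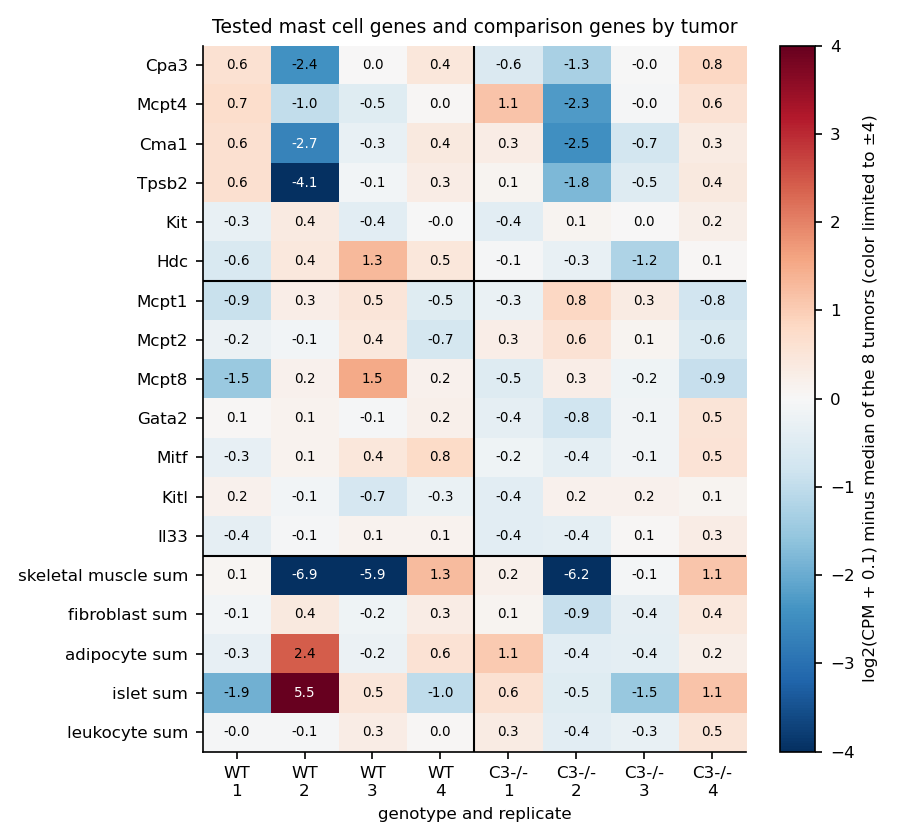
Log2 of CPM plus 0.1, minus the median of the 8 tumors, for the 6 tested mast cell genes (top), 7 further genes (middle) and the summed markers of 5 tissues (bottom), with a column per tumor and blue for lower and red for higher levels. The 4 proteases are blue in WT replicate 2 and C3-/- replicate 2, while Kit, Hdc and Mcpt8 lie between -0.28 and 0.43 there, Mcpt1 and Mcpt2 are highest in C3-/- replicate 2 at 0.83 and 0.58, and the muscle sum is blue in WT replicates 2 and 3 and C3-/- replicate 2.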

How the data were processed

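Tumor RNA of 4 WT and 4 C3-/- animals was poly-A selected and sequenced as read pairs of 150 bases. The authors deposited raw counts per gene and FPKM values on mm39. In the deposited FPKM column each count is divided by a size factor and the gene length. The submitters' processing notes name HISAT2 2.0.5 and DESeq2 1.20.0, while the paper names STAR and HTSeq, and the strand setting is not given in the sources used here. The deposited table also holds normalized counts, group means, log2 fold changes and p-values of the authors' own comparison, which were not used.

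Counts were tested with edgeR 4.0.16 in R 4.3.3 (filterByExpr with a minimum count of 10, TMM, glmQLFit and glmQLFTest, Benjamini-Hochberg adjustment over all 16610 genes tested). SE is that of the log2 fold change. Log2 CPM used a prior count of 2. Alternatives were DESeq2 1.42.0, DESeq2's size factors, limma-voom (limma 3.58.1), other filters, a replicate block and each tumor left out. The tests were tried on simulated data. No library repeated another, since chi-square per gene between any 2 tumors was at least 14.8. P-values set the difference between genotypes against the spread between these tumors.

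The members and lists were chosen with earlier results of these data known. Genes named were the members, a set of related genes, the 3 lowest p values of each mast cell list, the 10 genes most like the members and the 10 lowest in WT replicate 2. For lists of other tissues mainly counts and sums are given, and single genes named from them belong to the set of related genes, except Itgam and Pmel, named after their values were seen. Il3, Epx and Tyr were not analysed here, and a promoter sequence and some genes these rules name are not reported here. Coordinates are those of the deposited table. Of its 29968 identifiers, 29674 were found in GENCODE vM39, whose transcript starts differ slightly for some members. Coding sequences were aligned with edlib 1.3.9.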

Additional observations from a re-analysis of the deposited data

Results flagged for a closer look

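A search of 54 sets of 4 tumors (a named gene or summed level in a genotype each) found 4 in which a single tumor was distant from the rest. Chance gives about 1 in 20 sets, so a few among 54 would arise by chance. The sets share tumors and are not independent. Tpsb2 in WT replicate 2 was at -1.55 log2 CPM against 2.39 to 3.13 in the other WT tumors, and the mean log2 CPM of the 6 tested mast cell genes in that tumor was 0.42 against 1.96 to 2.25. The genes were selected on this tumor, so these gaps carry no further weight. Kitl in C3-/- replicate 1 was at 6.46 log2 CPM against 6.97 to 7.05 in the other C3-/- tumors, and the protease sum there was 15.4 CPM. The summed skeletal muscle level in C3-/- replicate 2 was 4.58 on the log2 scale of CPM against 10.74 to 11.93, in the tumor with the lowest protease sum of its genotype. Its part in the protease level was not tested.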

How the results depend on the processing

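The number of genes called between genotypes was 0 in 12 of 14 alternatives. It was 16 with DESeq2 and, with a tumor left out, ran from 0 to 4, the 4 without C3-/- replicate 1. The counts for the mast cell genes, the further mast cell genes and the genes of IgE receptor signalling stayed at 0 in all 14. The median log2 fold change of the mast cell genes, -0.15, ran from -0.52 (without WT replicate 2) to 0.12 (without WT replicate 1). Of 116 values of single genes under an alternative, 98 kept their sign and 18 did not, 13 of these with a tumor left out, and none passed the threshold. With limma-voom the log2 fold changes were -0.0087 for Mcpt4, 0.28 for Tpsb2 and 0.37 for Tpsab1, against 0.34, -0.18 and -0.25. With a tumor left out, Cpa3 ran from -0.63 to 0.15, Mcpt4 from -0.13 to 0.74, Cma1 from -0.61 to 0.094, Tpsb2 from -0.58 to 0.17, Tpsab1 from -0.63 to 0.21 and Kit from -0.041 to 0.24, and the cause was not tested. Ms4a2, Fcer1a and Hdc kept their sign. The mean log2 CPM of the tested mast cell genes in WT replicate 2 minus the median of the other tumors was -1.62, and for the 4 tested proteases alone -2.75, a measure chosen after seeing the data.

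Same-numbered tumors share a number and no stated litter or batch, and the correlations of their deviations from the group means were -0.03, 0.49, -0.36 and 0.59. With the replicate number as a block, 0 genes were called, and Tpsb2 had a log2 fold change of 0.14 and Tpsab1 of 0.070. Depth limits Ms4a2, Tpsab1, Fcer1a, Mrgprb2, Prss34 and Dct, whose highest count in any tumor was 35.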

Other observations

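Of 10 listed lipid mediator genes of activated mast cells, 7 were tested and 0 were called, and the median log2 fold change was -0.28 beside 0 over all genes tested. The smallest p values were those of Ptges, prostaglandin E synthase (-0.50, SE 0.28, p 0.107), Ltc4s, leukotriene C4 synthase (-0.74, SE 0.44, p 0.121), and Alox5, 5-lipoxygenase (-0.45, SE 0.27, p 0.123), each with an edgeR adjusted p of 0.985. Of the genes that sense or break down histamine, 4 were tested and 0 were called. Hrh2, a histamine receptor, had 15, 1, 10 and 16 counts in WT tumors and 14, 9, 12 and 18 in C3-/- tumors, and Hrh1 (58 counts), Hnmt (51) and Aoc1 (39) were not low in WT replicate 2.

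Over the 8 tumors, the 10 genes whose log2 CPM was most like the mean of the tested mast cell genes were Gm44616 (Pearson r 0.97), Rrp12 (0.97), D030062O11Rik, AI662270, Eya1, Kcnj10, Cytip, Chil1, Chrna1 and Bcat1 (0.94), across tumors that share the low level of the second replicates. Without WT replicate 2 they included Col6a1 (0.98), Col6a2, En2, Aurkb, Tspan18, Rnf144a, Nsg1, Rrp12 and Fbxl7 (0.96), and 1 gene was on both lists of 10. With the proteases alone in the mean, a measure added after the values were seen, 6 of the first 10 stayed. Besides Tpsb2, the genes for which WT replicate 2 lay furthest below the other 7 tumors were Psapl1, Gm45251, Gm28557, Map3k7cl, Trpc6, Hrh2, Sfrp4, Ighg2c and Rnase6, with 0 to 3 counts each in that tumor. In 17 lists of markers of other cell types, 90 genes were tested and 0 were called.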
